A study of Mus musculus with 16 samples.

Results

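Interferons are secreted proteins by which cells that sense viral or misplaced nucleic acid warn their neighbours. Type I interferons bind the receptor of Ifnar1 and Ifnar2, and the kinases Jak1 and Tyk2 then activate transcription factors such as Stat2, which with Irf9 is part of the complex ISGF3 that binds the interferon-stimulated response element (ISRE) in DNA. Interferon gamma acts through its receptor chains Ifngr1 and Ifngr2 on the gamma-activated sequence (GAS), and the genes switched on by both routes restrict viruses, degrade foreign RNA and feed back on the pathway. The genes described here are 37 such interferon response genes, chosen by symbol from a fixed list and not by a rule on measured values. The list was chosen with earlier results of these data known. A probe whose platform annotation carries the symbol was found for 35 of them, with 57 probes of the 25697 on the array, which covers 16593 symbols in all. Ifi44 and Dtx3l had no probe. For each gene the probe with the highest mean expression was used, and a gene is counted by that probe alone.

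The genes were measured in RNA of whole ventricles from BACHD mice and their WT littermates with Illumina MouseRef-8 v2.0 bead arrays, 4 arrays in each of 4 groups: BACHD at 15 mo, WT at 15 mo, BACHD at 3 mo and WT at 3 mo. BACHD mice carry full-length human mutant huntingtin on a bacterial artificial chromosome, on the C57BL6/J background. The transgene is driven by the regulatory sequence of huntingtin itself and is active throughout the body, so the model does not confine the mutant protein to the heart. By the labels the animals were young or old and the tissue was heart, while the months and the ventricles come from the methods. The sources used here do not give the sex of the mice.

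Each array detected 9780 to 10755 probes at a detection p-value below 0.01, and the 120 pairs of arrays correlated at 0.984 to 0.994. Markers of ventricular cardiomyocytes were high in every group, with group means of 13.10 to 13.13 on the log2 scale over 7 genes. Markers of atrial muscle stood apart on 4 of the aged arrays (BACHD at 15 mo, replicates 3 and 4; WT at 15 mo, replicates 2 and 4), where the mean of 6 genes was 8.02 to 9.14, against 6.67 to 7.08 on the other 12 arrays. Calls of the interferon response genes in aged hearts that are gained or lost without these 4 arrays are given both ways. Without them, replicates 1 and 2 remain of the aged BACHD arrays and replicates 1 and 3 of the aged WT arrays. The cell type markers and the other lists were not examined without these arrays. Of the 35 measured genes, 19 were detected on all 16 arrays, 4 on 4 to 15 arrays, 2 on 1 to 3 arrays and 10 on none. The genes detected on none were Ifit1, Oas1a, Oas3, Oasl1, Mx1, Ifih1, Xaf1, Iigp1, Trim25 and Parp9, and their values lie within the background of the array.

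Promoter windows of 250 bases before to 50 bases after the transcription start were taken from RefSeq (mouse build GRCm38.p6) and matched 29 of the 37 genes with 35 windows. The ISRE was searched as GAAANNGAAA on both strands and the GAS as TTCNNNGAA, which reads the same on both strands. The ISRE letters were present in windows of 15 of the 29 genes (51.7%), against 3.99% of 27025 genes in the same table, and the GAS letters in 9 of the 29 (31.0%), against 9.55%. A match is a description of the letters and not of a bound site. The 250 bases before the start are shown for 3 genes that fell with age in BACHD hearts and hold the ISRE. They are also shown for Irf5, the gene whose genotype difference was not the same at the 2 ages, whose window holds none. The windows of Irf5 and Ifit3 belong to starts inside the annotated genes, which begin at base 29526130 of chr6 and 34583119 of chr19. The bases before those first positions were not searched. Capitals mark the ISRE letters, which read TTTCNNTTTC where they lie on the other strand. Isg15 (chr4:156200819-156201068, minus strand) has 3 overlapping matches from 78 to 57 bases before the start, Gbp3 (chr3:142559794-142560043, plus strand) 2 overlapping matches in the first of its 2 windows, Ifit3 (chr19:34583279-34583528, plus strand) 2 separate ones, and Irf5 lies at chr6:29526375-29526624 on the plus strand.
Isg15: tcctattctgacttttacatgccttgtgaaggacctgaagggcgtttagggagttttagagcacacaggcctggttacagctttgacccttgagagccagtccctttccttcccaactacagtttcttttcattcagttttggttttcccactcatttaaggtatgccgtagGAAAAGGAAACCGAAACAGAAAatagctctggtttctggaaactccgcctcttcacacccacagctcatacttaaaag
Gbp3: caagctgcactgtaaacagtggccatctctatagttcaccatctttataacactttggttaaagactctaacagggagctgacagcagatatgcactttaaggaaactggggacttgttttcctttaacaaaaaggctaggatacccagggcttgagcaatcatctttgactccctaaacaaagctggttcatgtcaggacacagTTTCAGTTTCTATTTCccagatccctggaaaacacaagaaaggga
Ifit3: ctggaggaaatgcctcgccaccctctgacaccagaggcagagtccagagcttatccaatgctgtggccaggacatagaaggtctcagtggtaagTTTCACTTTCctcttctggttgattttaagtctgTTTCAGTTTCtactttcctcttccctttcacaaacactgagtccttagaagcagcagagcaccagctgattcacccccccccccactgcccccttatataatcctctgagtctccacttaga
Irf5: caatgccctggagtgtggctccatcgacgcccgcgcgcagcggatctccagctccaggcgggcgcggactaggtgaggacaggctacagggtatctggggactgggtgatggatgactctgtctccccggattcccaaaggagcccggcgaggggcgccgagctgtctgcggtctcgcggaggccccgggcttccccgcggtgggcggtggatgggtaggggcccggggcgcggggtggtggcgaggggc

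The largest and most frequent differences were those of age in BACHD hearts. At 15 mo, 10 of the 35 genes were lower than at 3 mo (28.6%) and 0 were higher, where lower or higher means P below 0.005 without adjustment in limma, the threshold of the methods. Over all genes of the array, 2.89% were lower and 3.1% were higher at the same threshold. The 10 genes were Gbp3, Isg15, Ifit3, Oas2, Usp18, Irf5, Oasl2, Mx2, Irf9 and Ifitm3, and 7 of them also had an adjusted p below 0.05 (Benjamini-Hochberg over all probes in limma), the exceptions being Oas2, Irf9 and Mx2. The median log2 difference of the 35 genes was -0.29, with 9 above 0, against a median of -0.0036 and 48.9% above 0 over all genes. Because the arrays read RNA of whole tissue, fewer cells of a type and less RNA per cell cannot be told apart in this or any later result.

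**Figure D1:**
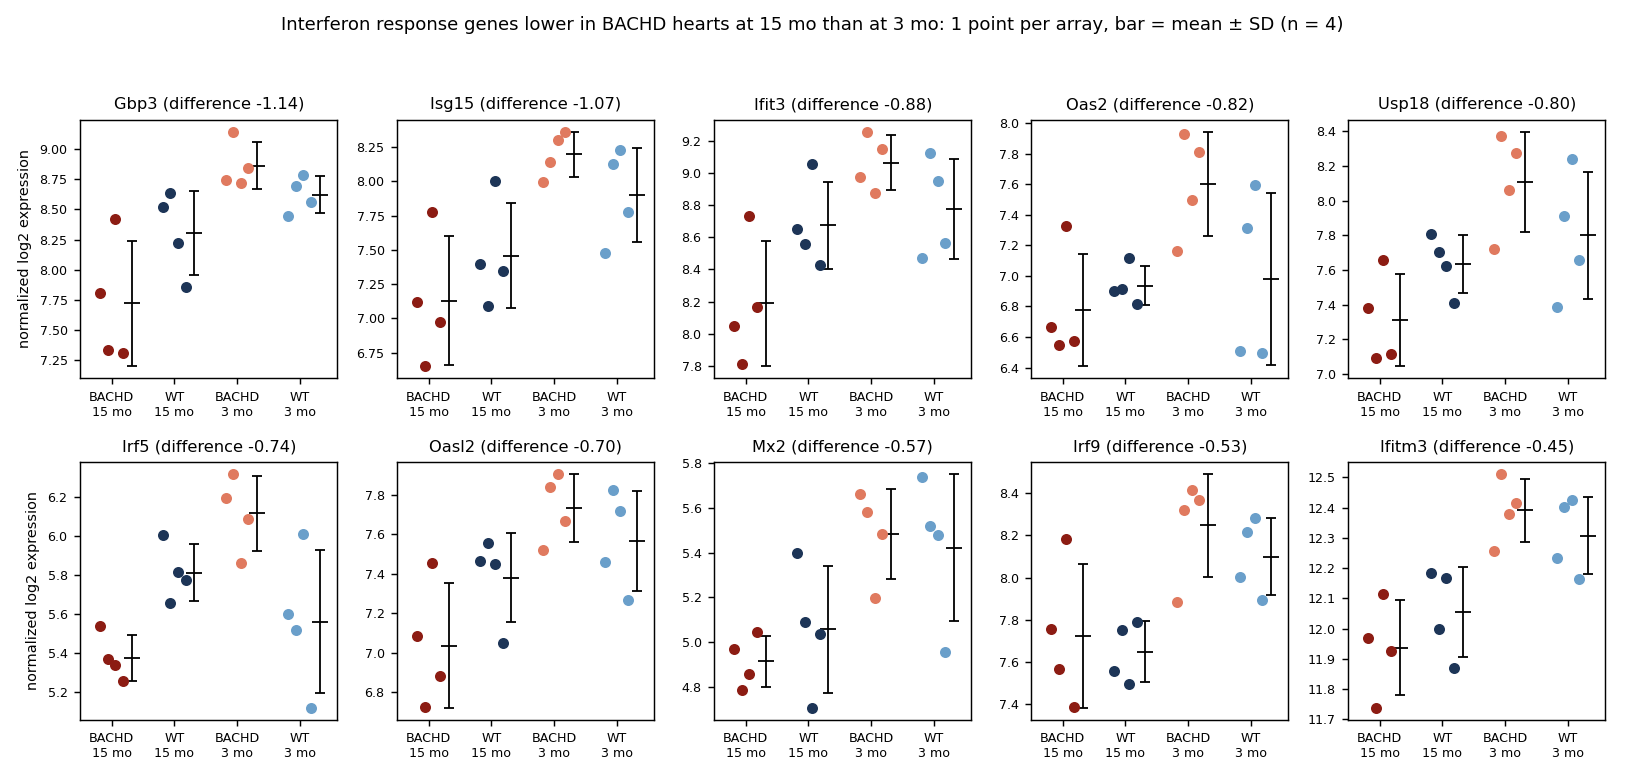
Normalized log2 expression (vertical axis) of the 10 genes that were lower in BACHD hearts at 15 mo than at 3 mo, in the 4 groups, with 1 point per array and the mean ± SD (n = 4) beside the points. The number over each plot is the log2 difference between the 2 BACHD groups, from -1.14 for Gbp3 to -0.45 for Ifitm3, and in 8 of the 10 plots the 2 BACHD groups do not overlap, the exceptions being Oas2 and Irf9.

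Gbp3 (chr3:142560016-142573213), an interferon-induced GTPase of the guanylate-binding protein family, had 7.81, 7.34, 8.42 and 7.31 in BACHD hearts at 15 mo, against 8.74, 9.14, 8.72 and 8.85 at 3 mo. All 4 aged arrays lay below all 4 young arrays, although aged replicate 3 came close to them. The log2 difference was -1.14 (standard error 0.22, adjusted p = 0.0109 in limma), or 0.453 times the young level. A second probe of Gbp3, also detected on all 16 arrays, gave a log2 difference of -1.27. Isg15 (chr4:156199424-156200818), a ubiquitin-like protein that is attached to other proteins during the response, had 7.12, 6.65, 7.77 and 6.97 at 15 mo and 7.997, 8.14, 8.30 and 8.36 at 3 mo in BACHD hearts. Its log2 difference was -1.07 (standard error 0.23, adjusted p = 0.0218 in limma), again with no overlap of the groups.

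Usp18, the protease that removes Isg15 from proteins and also dampens the type I receptor, moved the same way as its substrate. Its level was 7.38, 7.09, 7.66 and 7.11 in aged BACHD hearts and 7.72, 8.38, 8.06 and 8.28 in young BACHD hearts, with a log2 difference of -0.80 (adjusted p = 0.0299 in limma). The groups were apart by a small margin, since the highest aged array read 7.66 and the lowest young array 7.72. Of its other 2 probes, a dim one detected on 3 arrays was also lower (-0.79). It was detected on 1 of the 4 young BACHD arrays and on 0 of the aged ones, so no fold is given. The other, detected on all 16 arrays, had -0.46 and was not called.

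The IFIT proteins bind viral RNA and each other. Ifit3 (chr19:34583119-34588982) had 8.04, 7.81, 8.73 and 8.16 in aged BACHD hearts, against 8.98, 9.26, 8.87 and 9.15 in young BACHD hearts, and no aged array reached the young ones. Its log2 difference was -0.88 (standard error 0.19, adjusted p = 0.0237 in limma). The 2 dimmer probes of Ifit3 had -0.40 and -0.55 and were not called, and with the probes of each gene averaged Ifit3 was not called either (-0.61). Ifit2, a partner of Ifit3, had a log2 difference of -0.056 (0.23 on its second probe, detected on all 16 arrays), and Ifit1 was not detected on any array.

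Among the transcription factors, 2 of 5 were lower in BACHD hearts at 15 mo and the log2 differences of all 5 lay below 0. Irf5, which acts downstream of Toll-like receptors, had 5.54, 5.37, 5.34 and 5.26 at 15 mo, on none of which it was detected, against 6.19, 6.32, 5.86 and 6.09 at 3 mo, on all of which it was. The measured log2 difference was -0.74 (adjusted p = 0.0157 in limma), and because the aged level lies within the background the change is a fall of at least 1.43-fold. This bound sets the young mean against the lowest signal that counted as detected on each aged array. It holds for the main processing only, since the log2 difference was -0.74 to -0.24 over the 12 other settings. Irf9, the DNA-binding subunit of ISGF3, was lower by a log2 difference of -0.53 (adjusted p = 0.0900 in limma), from values of 7.76, 7.57, 8.18 and 7.39 at 15 mo and 7.89, 8.32, 8.42 and 8.37 at 3 mo that overlapped (exact permutation test, two-sided, p = 0.0571, where the smallest p that 4 arrays against 4 can give is 0.0286). A second, dimmer probe of Irf9 had -0.12. Irf7, the main amplifier of type I interferon production, had -0.61 with the groups apart, but its probe was detected on 3 arrays and the difference was not called. Stat2, the partner of Irf9 in ISGF3, had -0.45, and Irf1, the factor of the interferon gamma response, had -0.051.

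The enzymes that sense or modify double-stranded RNA were divided. Oasl2, a relative of the oligoadenylate synthetases, was lower in aged BACHD hearts at 7.08, 6.72, 7.46 and 6.88, against 7.52, 7.84, 7.91 and 7.67 in young BACHD hearts (log2 difference -0.70, adjusted p = 0.0317 in limma), and the groups did not overlap. Oas2, which makes the oligoadenylates that activate RNase L, had 6.66, 6.55, 7.33 and 6.57 at 15 mo and 7.17, 7.93, 7.50 and 7.81 at 3 mo. Aged replicate 3 lay among the young arrays, and the log2 difference of -0.82 was called without adjustment but had an adjusted p of 0.0877 in limma. Eif2ak2, the kinase that halts translation when it binds such RNA, had a smaller log2 difference of -0.29 with the groups apart, which was not called. Adar, which edits adenosines in double-stranded RNA, had -0.26 on its brightest probe, against 0.23 on a probe detected on 5 arrays and 0.14 on a probe detected on 1, and none of the 3 was called. Oas1a, Oas3 and Oasl1 were not detected on any array.

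Of the membrane-bound and other antiviral effectors, Ifitm3 and Mx2 were lower. Ifitm3, which blocks the entry of enveloped viruses, had 11.97, 11.74, 12.12 and 11.93 in BACHD hearts at 15 mo, against 12.26, 12.51, 12.38 and 12.42 at 3 mo. The log2 difference was small but even across the arrays at -0.45 (standard error 0.096, adjusted p = 0.0200 in limma). Mx2, a dynamin-like GTPase, was called with 4.97, 4.79, 4.86 and 5.05 at 15 mo against 5.66, 5.58, 5.20 and 5.48 at 3 mo, but its probe was detected on none of these 8 arrays and no fold is given. Bst2, the tetherin that holds budding virus particles on the cell, had a log2 difference of -0.85, larger than that of 7 called genes, yet its arrays were too scattered for a call (7.63, 7.08, 8.50 and 7.63 at 15 mo, against 7.87, 8.87, 8.71 and 8.78 at 3 mo). Aged replicate 3 and young replicate 1 were the arrays that crossed. Without aged replicate 3 the log2 difference of Bst2 was -1.11 and without young replicate 1 it was -1.08, and both were called. Leaving out an array because it crossed must enlarge the difference, so these calls cannot decide whether Bst2 was lower. The omissions of the other arrays are not given for Bst2. Rsad2, the radical enzyme viperin, had -0.44 and was not called.

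Among the other GTPases of immunity, Gbp2 had a log2 difference of -0.54 and Igtp of -0.53, neither called, although all 4 aged arrays of Igtp lay below the 4 young ones. Irgm1, which directs autophagy of intracellular pathogens, differed between its probes. The brightest probe had 0.060, while a second probe detected on all 16 arrays was lower at -0.44 (adjusted p = 0.0229 in limma) with the groups apart. The brightest probe stands for Irgm1 in all counts. The ADP-ribosyltransferase Parp14 had -0.39, the antiviral factor Samd9l -0.26, the RNA helicase Dhx58 -0.29 and Ifi35 0.069, and none of them was called. The ISRE letters stood in windows of 4 of the 7 lower genes with a RefSeq promoter and of 11 of the 20 genes not called. In all, 11 of the 35 genes had aged BACHD arrays wholly below the young ones (31.4%), against 4.93% of all genes, and 0 lay wholly above. With the 4 aged arrays of high atrial markers left out, 11 genes were lower: Bst2 (-1.20), Irf7 (-0.85), Rsad2 (-0.81) and Gbp2 (-0.66) were added, and Oas2 (-0.995), Irf5 (-0.66) and Mx2 (-0.60) were no longer called. Dhx58 moved to -0.66 and was not called. Of the arrays left out, BACHD replicate 3 had the highest mean of its group over the 19 genes detected on all arrays (8.92). The added calls therefore cannot decide whether those genes were lower. The share of all genes lower with these arrays left out was not counted.

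In WT hearts the same age contrast gave smaller values for most of these genes. At 15 mo, 1 of 35 genes was lower than at 3 mo and 0 were higher, against 1.15% of all genes lower and 1.91% higher. The 1 gene was Oasl1, with 4.63, 4.78, 5.24 and 4.50 at 15 mo against 5.42, 5.23, 5.30 and 5.43 at 3 mo, on a probe detected on 0 arrays. No member detected on at least 4 arrays was called in limma, and 3 of these 23 had an unadjusted p below 0.05. The median log2 difference of the 35 genes was -0.067, with 10 above 0, against 0.00081 and 50.3% above 0 over all genes.

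Irf9 came nearest to a call among the detected genes. In WT hearts it had 7.56, 7.75, 7.50 and 7.79 at 15 mo, against 8.001, 8.21, 8.28 and 7.90 at 3 mo, with a log2 difference of -0.45 (adjusted p = 0.261 in limma). It was the 1 gene of the 35 with aged WT arrays wholly below the young ones, against 3.1% of all genes. On this probe the age difference of Irf9 was thus close in size to that in BACHD hearts. The second, dimmer probe of Irf9, detected on all 16 arrays, had -0.11 in WT hearts and was not called. Isg15 had 7.40, 7.09, 8.004 and 7.34 at 15 mo and 7.48, 8.12, 8.23 and 7.77 at 3 mo, overlapping widely around a log2 difference of -0.44 (95% confidence interval -0.93 to 0.048). Ifi35 had -0.37, Gbp3 -0.32, Stat2 -0.29 and Ifitm3 -0.25, and none of them was called. With the 4 arrays of high atrial markers left out, Irf9 was called (-0.57) and Oasl1 was not (-0.41). The arrays left out held the higher aged WT values of Irf9 (7.75 and 7.79), so that call cannot decide whether Irf9 was lower. Igtp and Irf5 had the largest positive values, 0.26 and 0.25, and were not called. The WT and BACHD age contrasts share no array, and their difference is the same quantity as the difference of the genotype contrast between the ages, which is tested below.

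**Figure D2:**
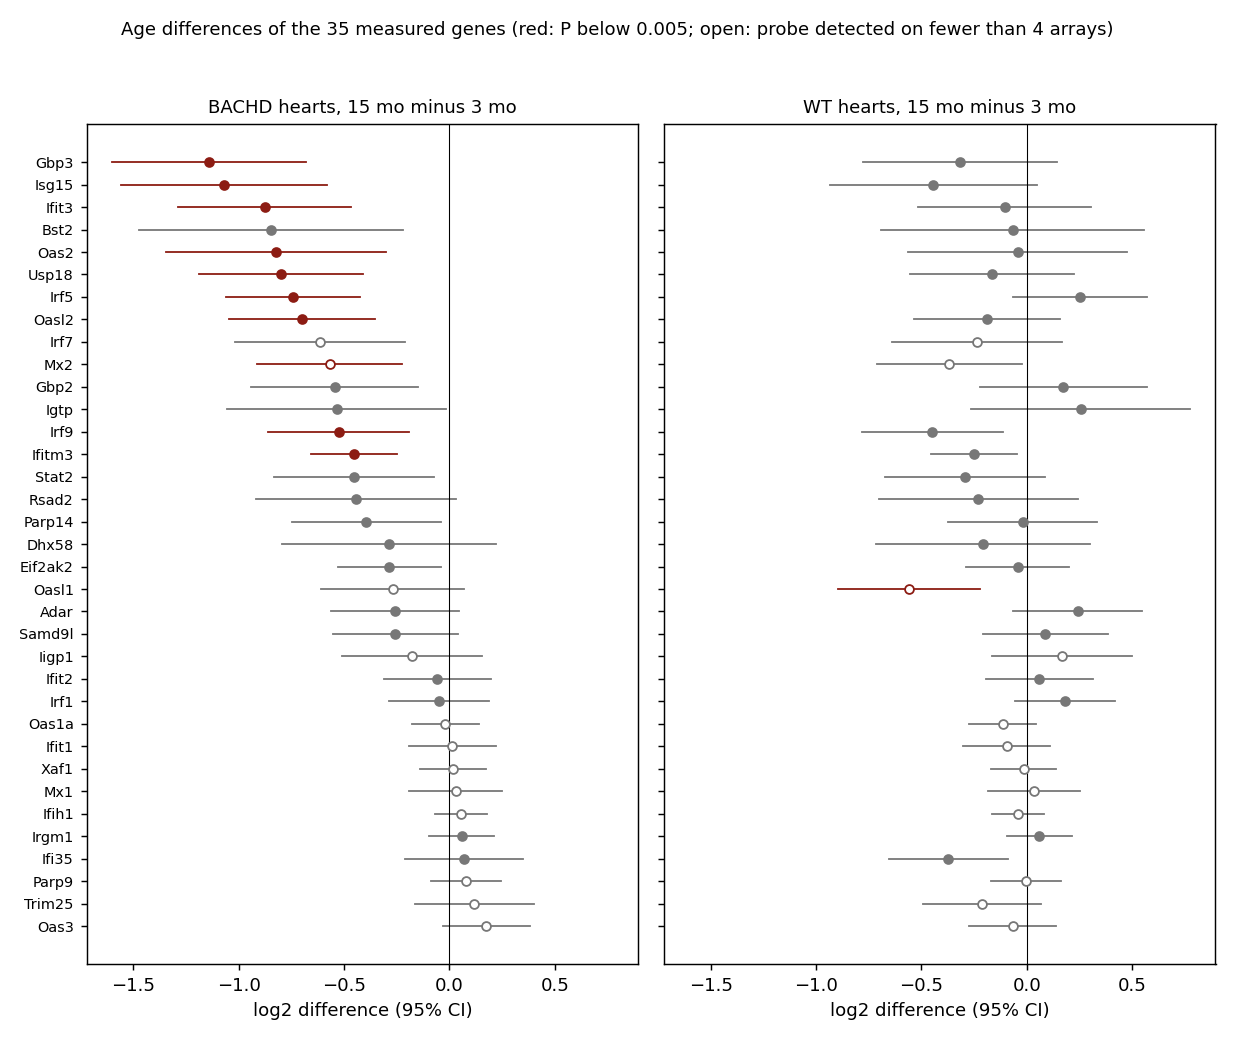
Log2 difference between 15 mo and 3 mo (horizontal axis) with its 95% confidence interval for the 35 measured genes, in BACHD hearts (left) and WT hearts (right), in the order of the BACHD values. Red marks P below 0.005 and open points mark probes detected on fewer than 4 arrays, and 10 genes are red on the left against 1, the undetected Oasl1, on the right.

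Between the genotypes at 15 mo, 0 of 35 genes were called, against 0.567% of all genes higher and 0.47% lower in BACHD hearts. In limma 6 of the 35 had an unadjusted p below 0.05, and the median log2 difference was -0.11 with 13 above 0, against -0.0012 and 49.5% above 0 over all genes. No probe of the array had an adjusted p below 0.05 in this comparison in limma, the smallest being 0.138. The largest differences were those of the GTPases. Gbp3 had 7.81, 7.34, 8.42 and 7.31 in BACHD hearts and 8.52, 8.63, 8.22 and 7.85 in WT hearts (log2 difference -0.59, 95% confidence interval -1.05 to -0.13), and BACHD replicate 3 stood among the WT arrays. Gbp2 had 9.27, 8.81, 9.64 and 8.89 in BACHD hearts against 9.82, 9.96, 9.98 and 9.17 in WT hearts (-0.58, not called). Ifit3 had -0.49, Bst2 -0.45 and Rsad2 -0.42, and their groups overlapped. Irf5 was the 1 gene of the 35 whose BACHD arrays all lay below the WT arrays, with 5.54, 5.37, 5.34 and 5.26 against 6.01, 5.66, 5.82 and 5.77 (-0.44, at least 1.16-fold lower, not called). Over all genes, 1.57% had such a separation downwards.

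These counts turned on single arrays, and the share of all genes called with arrays left out was not counted. Without BACHD replicate 3, 4 of the 35 genes were lower in aged BACHD than in aged WT hearts: Gbp3 (-0.82), Gbp2 (-0.74), Rsad2 (-0.67) and Ifit3 (-0.67). Without WT replicate 4, Gbp2 (-0.77) and Gbp3 (-0.74) were lower. With the 4 aged arrays of high atrial markers left out, which include both, the same 4 genes were lower and Parp9, whose probe no array detected, was higher (0.34). Bst2 then had -1.04 and Isg15 -0.82, against -0.45 and -0.33 with all arrays, and neither was called. BACHD replicate 3 had the highest mean of the aged BACHD arrays over the 19 genes detected on all arrays (8.92). WT replicate 4 had the lowest of the aged WT arrays (8.59). Leaving out either enlarges a difference below 0 in genes that follow these means. The calls gained by these omissions therefore cannot decide whether the genes were lower.

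At 3 mo the differences between the genotypes mostly had the other sign. Irf5 was the 1 gene of 35 that was higher in BACHD hearts and 0 were lower, against 0.265% of all genes higher and 0.217% lower. Irf5 had 6.19, 6.32, 5.86 and 6.09 in BACHD hearts, against 5.60, 5.52, 6.01 and 5.12 in WT hearts, where 2 of the 4 arrays detected it. WT replicate 3 lay within the BACHD range, and the log2 difference of 0.56 (standard error 0.15) had an adjusted p of 0.913 in limma. The call was lost without BACHD replicate 1 or 2 or WT replicate 2 or 4. The median log2 difference of the 35 genes was 0.15, with 25 above 0 (71.4%), against 0.0064 and 52.5% above 0 over all genes.

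The other members were not called at 3 mo. Oas2 had 7.17, 7.93, 7.50 and 7.81 in BACHD hearts and 6.51, 7.32, 7.59 and 6.50 in WT hearts, a log2 difference of 0.62 carried by 2 low WT arrays. Adar had 6.34, 6.25, 5.78 and 6.23 in BACHD hearts against 5.53, 5.93, 5.71 and 5.58 in WT hearts (0.46, not called), with BACHD replicate 3 inside the WT range, while a dimmer probe detected on 5 arrays had -0.19. Irf7 had 5.82, 6.24, 5.64 and 5.75 in BACHD hearts and 5.07, 5.50, 5.62 and 4.84 in WT hearts, a log2 difference of 0.61 that was not called, and 3 of these 8 arrays detected it. It was the 1 gene of 35 with BACHD arrays wholly above the WT ones, against 1.78% of all genes. Igtp had 0.39, Bst2 0.33 and Usp18 0.31. Ifi35 had the most negative value, -0.28. Without WT replicate 3, on which 18 of the 19 genes detected on all arrays were above the group mean, 4 genes were higher in BACHD hearts: Oas2 (0.83), Irf7 (0.72), Eif2ak2 (0.35) and Irf5. Without BACHD replicate 3, Adar was called as well as Irf5. WT replicate 3 had the highest mean of its group over those 19 genes (9.14), and Adar read lowest of its group on BACHD replicate 3. Leaving out such an array enlarges the difference, so the added calls cannot decide whether these genes were higher. The share of all genes called without either array was not counted.

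The change of the genotype difference between the ages was tested directly, as the BACHD minus WT difference at 15 mo less that at 3 mo. Irf5 was the 1 gene of 35 called, against 0.368% of all genes with a negative call and 0.307% with a positive one. Its value was -0.99 (standard error 0.21, adjusted p = 0.643 in limma), and the level in BACHD hearts was below that in WT hearts at 15 mo and above it at 3 mo. It was called with each of the 16 arrays left out in turn. No probe of the array passed an adjusted p of 0.05 in this test, the smallest being 0.0576, while 1590 probes had an unadjusted p below 0.05. The values lay below 0 for 26 of the 35 genes, with a median of -0.21, and 48.1% of all genes lay above 0 with a median of -0.0074. Gbp3 (-0.83), Igtp (-0.79), Oas2 (-0.78), Bst2 (-0.78), Ifit3 (-0.77) and Gbp2 (-0.72) followed Irf5 in size and were not called. Without BACHD replicate 3 of 15 mo, Gbp3 (-1.06), Ifit3 (-0.95) and Gbp2 (-0.88) were called beside Irf5. The same genes were called with the 4 aged arrays of high atrial markers left out. Both omissions take out BACHD replicate 3, the highest aged BACHD array over the 19 genes detected on all arrays (8.92). That lowers the aged BACHD level of genes that follow this mean, so the added calls cannot decide whether their genotype difference changed.

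**Figure D3:**
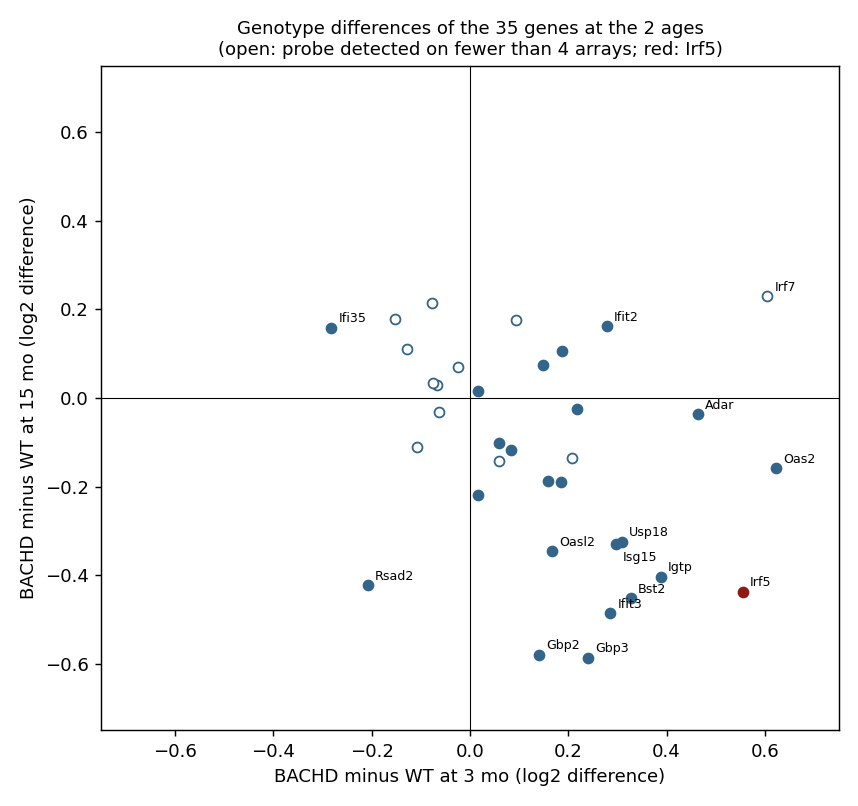
BACHD minus WT log2 difference of each of the 35 genes at 3 mo (horizontal axis) and 15 mo (vertical axis). Open points mark probes detected on fewer than 4 arrays and red marks Irf5, and 19 of the 35 points lie at the lower right, above 0 at 3 mo and below 0 at 15 mo.

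A level in BACHD hearts below WT at 15 mo and above WT at 3 mo was found for 19 of the 35 genes (54.3%), against 27.4% of all 16593 genes. Among the genes detected on all 16 arrays it was found for 14 of 19 (73.7%), against 29.98% of 6435. These shares describe genes that move together on the same arrays and are no test.

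The 22 other probes of these genes did not always lie on the same side of 0 as the brightest. For aged against young BACHD hearts 5 of the 22 lay on the other side, for aged against young WT hearts 7, for BACHD against WT hearts 7 at 15 mo and 10 at 3 mo, and for the change of the genotype difference 6. The second probe of Irgm1 in BACHD hearts was the 1 called among them, and 2 to 5 in each comparison were detected on at least 4 arrays. At 3 mo these were the dimmer probes of Ifit3 (-0.11 and -0.076, against 0.29 on the brightest), Irf9 (-0.082 against 0.15), Irf1 (-0.067 against 0.016) and Adar. At 15 mo they were those of Irgm1 (-0.17 against 0.015), Irf9 (-0.095 against 0.073) and Adar (0.064 against -0.036). In WT hearts with age they were those of Irgm1 (-0.077 against 0.060) and Adar (-0.023 against 0.24), and for the change of the genotype difference those of Adar (0.25 against -0.50) and Ifit2 (0.15 against -0.12). The 2 other probes of Oasl1 were not called in WT hearts (-0.10 and 0.017), nor was the second probe of Oasl2 in BACHD hearts (-0.25), and no array detected these 3.

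How far single arrays set these values is seen in the mean over the 19 genes detected on all 16 arrays. It was 8.59, 8.37, 8.92 and 8.44 in BACHD hearts at 15 mo, 8.86, 8.85, 8.96 and 8.59 in WT hearts at 15 mo, 8.90, 9.19, 9.09 and 9.18 in BACHD hearts at 3 mo, and 8.78, 8.99, 9.14 and 8.74 in WT hearts at 3 mo. The group means were 8.58 ± 0.24, 8.81 ± 0.16, 9.09 ± 0.14 and 8.91 ± 0.19 in the same order (SD, n = 4). The genes of an array tended to stand high or low together. On BACHD replicate 3 at 15 mo, 17 of the 19 genes were above the group mean, against 50.6% of the 6435 genes detected on all arrays. On BACHD replicate 1 at 3 mo 2 of the 19 were, against 60.2%, and on WT replicate 4 at 15 mo 4 of the 19 were, against 48.6%.

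Macrophages are the immune cells that a ventricle holds in number, and some of their markers were lower in BACHD hearts at 15 mo. Of 12 macrophage symbols 9 had a probe, and each of the 9 was detected on at least 1 array. In BACHD hearts 4 of the 9 were lower at 15 mo than at 3 mo: Adgre1 (log2 difference -0.80), C1qb (-0.59), C1qa (-0.46) and C1qc (-0.44), with a median of -0.46 over the 9. Over all genes of the array, 2.89% were lower in that comparison. In WT hearts 0 of the 9 were called in limma and 1, Cd14, had an unadjusted p below 0.05, with a median of -0.21. Between BACHD and WT hearts at 15 mo Adgre1 was lower (-0.61), 8 of the 9 lay below 0 and the median was -0.19. Of all genes, 0.47% were lower there, and no probe of the array had an adjusted p below 0.05 in limma. At 3 mo 0 of the 9 were called between the genotypes in limma, with 0 at an unadjusted p below 0.05. The summed level of the 9 markers, on the linear scale, was 4350 to 6279 in BACHD hearts at 15 mo, 5782 to 6604 in WT hearts at 15 mo, 5549 to 7474 in BACHD hearts at 3 mo and 5362 to 8270 in WT hearts at 3 mo. Their part in the lower interferon response genes was not tested. Among BACHD hearts at 15 mo, the array with the highest macrophage mean (replicate 4, 8.36) had an interferon mean of 8.44, below the group mean. Replicate 3 of that group, with the highest interferon mean (8.92), had the next highest macrophage mean (8.25). Among BACHD hearts at 3 mo replicate 1 had the lowest value of both (8.34 and 8.90). In WT hearts at 15 mo replicate 4 had the highest macrophage mean (8.41) and the lowest interferon mean (8.59), but the macrophage means of that group spanned only 8.29 to 8.41. At 3 mo WT replicate 3 had the highest value of both (8.80 and 9.14).

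**Figure D4:**
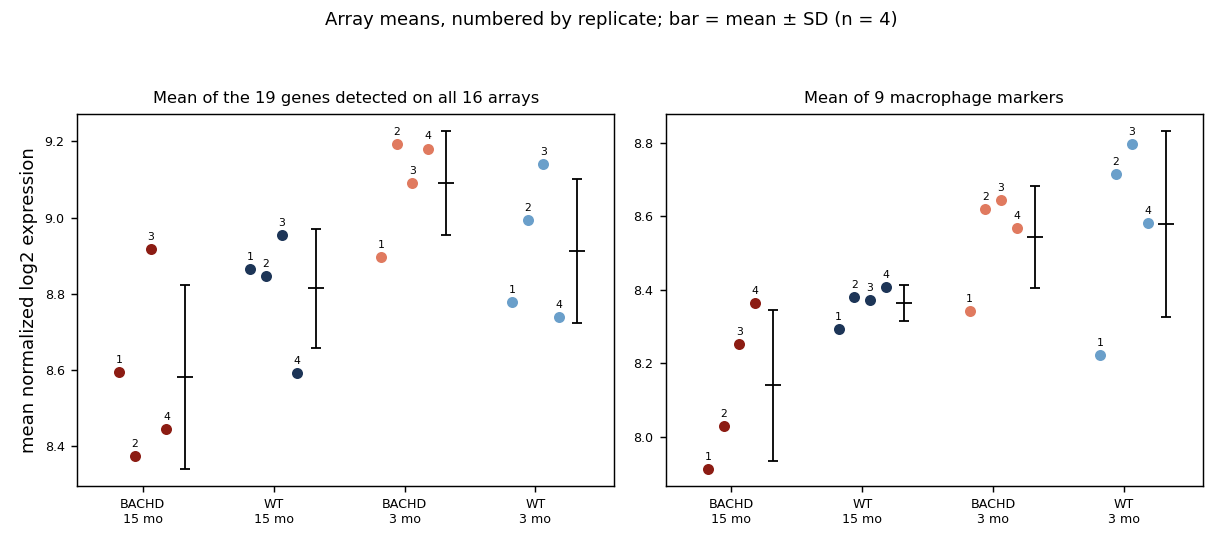
Mean normalized log2 expression of the 19 interferon response genes detected on all 16 arrays (left) and of 9 macrophage markers (right) on each array, numbered by replicate, with the mean ± SD of each group (n = 4). Replicate 3 is the highest of the aged BACHD arrays on the left at 8.92, and replicate 4 on the right at 8.36.

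Lymphoid and plasmacytoid markers were mostly not detected. Of 7 T cell, 6 NK cell and 4 plasmacytoid dendritic cell markers with a probe, 0, 0 and 1 were detected on at least 4 arrays. Among T cell markers Cd3g was higher in aged than young WT hearts (0.83, detected on 1 array), and among NK cell markers Klrk1 was lower in aged BACHD than aged WT hearts (-0.37, detected on none). The Klrk1 difference, like every other between the genotypes at 15 mo, had an adjusted p above 0.05 in limma. S100a8, a calcium-binding protein of neutrophils, was higher in BACHD hearts at 15 mo than at 3 mo (2.52), with a median of 1.30 over 5 neutrophil markers. Of 5 red blood cell symbols 3 had a probe, all detected on at least 4 arrays and none called in limma. Their median log2 difference was 0.40 between BACHD and WT hearts at 15 mo, where 1 (Alas2, 0.63) had an unadjusted p below 0.05, and 0.35 between aged and young BACHD hearts. Their summed linear level was 39085 to 43471 in BACHD hearts at 15 mo, 37497 to 41959 in WT hearts at 15 mo, 36492 to 41926 in BACHD hearts at 3 mo and 38712 to 41431 in WT hearts at 3 mo. The part of these cells in the interferon response genes was not tested.

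The genes that make and relay the signal were given from lists of their own. Of 20 ligand and receptor symbols 15 had a probe, and 6 of these were detected on at least 4 arrays. Ifngr2, the signalling chain of the interferon gamma receptor, was lower with age in both genotypes, by a log2 difference of -0.59 in BACHD hearts (adjusted p = 0.00746 in limma) and -0.43 in WT hearts (adjusted p = 0.0849). Ifnar2, a chain of the type I receptor, was lower in BACHD hearts at 15 mo both than in WT hearts of that age (-0.37) and than in BACHD hearts at 3 mo (-0.34), 2 comparisons that share the aged BACHD arrays. Its difference from aged WT hearts had an adjusted p above 0.05 in limma. No other ligand or receptor was called in any of the 4 comparisons.

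Downstream of the receptors, 1 of 14 kinases, factors and regulators with a probe was called. Pias1, a SUMO ligase, was higher in BACHD hearts at 15 mo than at 3 mo (0.36, adjusted p = 0.0112 in limma). Of 12 nucleic acid sensors and adaptors, and of 13 genes of antigen presentation that interferon gamma induces, 0 were called in limma in any of the 4 comparisons. In each comparison at most 1 of the 12 and at most 1 of the 13 had an unadjusted p below 0.05. The sensor and adaptor genes of smallest P were Ddx58, a sensor of viral RNA on a probe that no array detected, with 0.35 between BACHD and WT hearts at 3 mo, and the kinase Tbk1, with 0.19 between aged and young BACHD hearts. Among the antigen presentation genes they were the peptide transporter Tap2, with 0.29 between aged and young WT hearts, and the proteasome subunit Psmb10, with 0.20 between BACHD and WT hearts at 15 mo. The median log2 difference of the antigen presentation genes between aged and young BACHD hearts was -0.030, with 10 of the 13 below 0. Over all genes that median was -0.0036. Between BACHD and WT hearts at 15 mo the median was -0.089, with 11 of the 13 below 0. Between aged and young WT hearts it was 0.0037, with 6 below 0, and between the genotypes at 3 mo -0.0077, with 7 below 0.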

How the data were processed

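The authors read the bead signals in BeadStudio. They were deposited as intensity per probe and array, neither background corrected nor normalized, with a detection p-value beside each. The authors also deposited processed log2 values, which log2 of the intensity followed by quantile normalization gave to within 5.0e-09. Here neqc corrected the intensity by normexp (offset 16), taking the negative controls from the detection p-values, and then quantile normalized it and took log2 (limma 3.58.1, R 4.3.3). One limma fit over all 25697 probes and 16 arrays gave 4 comparisons and the change of the genotype difference with age. Calls were made at P below 0.005, and adjusted p-values are Benjamini-Hochberg over all probes. The exact permutation tests were two-sided. The number of arrays limits the precision.

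Groups and replicate numbers came from the labels. The methods count 4 mice per group and each array was taken as 1 mouse, and the slide and scan of an array are not given in the sources used here. The 37 genes, the other lists and the tests were chosen with earlier results of these data known. The rule for named genes was every member with a probe, by its probe of highest mean, other probes where they differed in direction or call, and of each other list the members called or up to 2 of smallest P. Symbols came from the platform annotation (1 symbol for 23978 probes, none for 1719), and all 57 probes of the members matched RefSeq by gene ID. In data simulated for aged against young BACHD hearts over 25697 probes, 48 of 67 log2 changes of 0.5, 65 of 67 of 1 and 66 of 66 of 2 were called, with 138 of 25497 unchanged probes. The simulated noise was independent between probes, and the changes were placed on probes drawn at random from the whole array. The genes described here moved together on an array, so these shares do not give how often a change in them would be called. The alternatives were no background correction, an offset of 50, median scaling, the authors' processed values, probes detected on at least 4 arrays, the 8 arrays of a comparison alone, array weights, trended and robust variances, the adjusted threshold, averaged probes, a replicate block, each array left out, and, chosen after seeing the data, the 4 aged arrays of raised atrial markers left out.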

Additional observations from a re-analysis of the deposited data

Results flagged for a closer look

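Over the 35 genes and the mean of 19 of them, each in 4 groups (144 sets of 4 arrays), 5 sets held 1 array that lay far from the other 3, and chance gives about 5% of such sets. Oas2 read 7.33 on BACHD replicate 3 at 15 mo, against 6.66 on the next highest array of that group. Oas3, which no array detected, read 4.91 on BACHD replicate 1 at 15 mo, against 4.53. Bst2 read 7.87 on BACHD replicate 1 at 3 mo, where the next lowest array read 8.71, and 7.54 on WT replicate 4 at 15 mo, where the next lowest read 8.32. Igtp read 8.52 on that same WT array, against 9.27.

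The genotype difference of Irf5 was not the same at the 2 ages by the direct test, with a value of -0.99 at P below 0.005 and an adjusted p of 0.643 in limma.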

How the results depend on the processing

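Called genes of the 35 in aged against young BACHD hearts numbered 7 to 13 with 1 array left out (13 without BACHD replicate 3 of 15 mo), and the median difference was -0.42 to -0.28. Gbp3, Isg15, Usp18, Oasl2 and Ifitm3 were called under all 8 omissions and all 12 other settings, Irf5 under all but the omission of the 4 aged arrays of raised atrial markers, and Ifit3 under all but averaged probes. Oas2 and Irf9 were called with BACHD replicate 3 of 15 mo or 1 of 3 mo left out, and Mx2 with BACHD replicate 4 of 15 mo or 3 of 3 mo, and all 3 were lost with any other BACHD array left out.

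The smaller counts moved, and for no setting with arrays left out was the share of all genes called counted. For BACHD against WT at 15 mo the count was 1 in place of 0 without background correction, with the authors' processed values, with the 8 arrays alone and with the replicate block, and 5 without the 4 atrial arrays (0 to 4 with 1 array left out, median -0.15 to -0.063). For WT age it was 0 in place of 1 with the offset of 50, with probes detected on at least 4 arrays, at the adjusted threshold, with averaged probes and with the block, 2 with the 8 arrays alone and 3 with trended variances (0 to 1 with 1 left out, median -0.15 to -0.024). For BACHD against WT at 3 mo it was 0 in place of 1 with the 8 arrays alone and at the adjusted threshold, and 2 with array weights or trended variances (0 to 4, median 0.082 to 0.19). For the difference between ages it was 0 in place of 1 at the adjusted threshold, 2 with the block and 4 without the atrial arrays (1 to 4, median -0.29 to -0.16). No called difference changed sign. The size of the Irf5 differences depended on the processing. Over the settings other than single omissions they were -0.74 to -0.24 for BACHD age and 0.18 to 0.58 between the genotypes at 3 mo. For the change between the ages they were -1.01 to -0.31.

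The replicate numbers were not used as pairs in the main fit, and the sources used here do not say whether arrays of equal number shared a batch. Deviations of the 24 pairs of equal number correlated at -0.50 to 0.44, with a median of 0.093. Those of the 72 other pairs between groups correlated at -0.43 to 0.53, with a median of -0.038. Of the 16 arrays, 7 correlated best with an array of their own number. With the block, 11 genes were called in BACHD age in place of 10. Background limits the 12 genes detected on fewer than 4 arrays.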
